A study of Mus musculus with 6 samples.

Results

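The replication fork is the moving site at which DNA is copied, and 40 genes of its machinery were followed in cells sorted from the subventricular zone, a neurogenic niche of the adult mouse brain. The genes were taken by name from the deposited table of 55487 rows, and all 40 names were found. They encode the GINS helicase subunits, the polymerases alpha-primase, delta and epsilon, the sliding clamp and its RFC loader, the RPA subunits, lagging strand enzymes, fork protection factors, origin firing factors and the histone chaperones CAF-1 and ASF1. The membership rule used symbols only and no measured value, although the genes were chosen with earlier results of these data known.

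RNA-seq libraries were available from 2 genotypes, with 3 libraries each, labelled A, B and C. The control genotype was E2F1(+/-);E2F3(F/+), called heterozygous here, and the other was E2F1(-/-);E2F3(F/F), called knockout here, so the controls also carried 1 E2F1 null allele and 1 floxed E2F3 allele. E2F1 and E2F3 are activator members of the E2F family, transcription factors known for driving genes of S phase. Both genotypes carried NestinCreERT2, a tamoxifen-activated Cre under Nestin regulatory sequence, and an R26 EYFP reporter, on a mixed C57BL/6;Sv/129;FVB/N background. Mice were 6 to 10 weeks old, tamoxifen was gavaged on 5 days (200 mg/kg each day), and tissue was collected 10 days after the last dose. YFP+ cells of several mice were pooled to at least 200000 cells per library, so the spread between libraries is a spread between pools. E2F3 carried floxed alleles, which recombine only in cells where the Cre is active and their descendants. The control group has no wild-type E2F1 or Cre-free counterpart among the libraries used here. The study asks how activator E2Fs bear on the quiescent and activated states of adult neural stem cells.

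Replication begins when DDK kinase (Cdc7 with Dbf4) and the firing factors Topbp1 and Ticrr turn loaded MCM helicase into the active CDC45-MCM-GINS form. Polymerase alpha-primase lays primers, RFC loads the PCNA ring at them, and polymerases epsilon and delta extend the leading and lagging strands. Fen1, Dna2 and Lig1 finish Okazaki fragments, RPA covers exposed strands, and CAF-1 and ASF1 place histones behind the fork. Many of these genes are textbook E2F targets. In the subventricular zone, stem cells are mostly quiescent while transit-amplifying cells and early neuroblasts replicate their DNA.

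Of the 40 replication fork genes, 23 were lower in knockout libraries, 0 were higher and 17 did not pass the test (limma on log2 normalized reads, Benjamini-Hochberg adjusted p under 0.05). Across all 18227 rows tested, 8.59% were called lower and 7.23% higher, against 57.5% of the fork genes lower. The median log2 change was -0.95 over the fork genes and 0.05 over all rows tested. The 23 falls ranged from 1.60-fold for Tipin to 4.20-fold for Ticrr, and 19 of them were at least 2-fold, against 6.24% of all rows tested. In each knockout library the value was below all 3 heterozygous values for 29 of the 40 genes (72.5%), against 20.2% of all rows tested. The reverse order, with every knockout library above, was found for 1 fork gene, Pold4, against 18.5% of all rows, and the other 10 genes overlapped. No fork gene was called higher by limma, edgeR, DESeq2 or limma-voom, and 0 had an unadjusted p under 0.05 upward. edgeR called 22 of the 40 lower (8.25% of its rows) and DESeq2 28 (9.75% of its rows), adding Gins3, Pold1, Rpa2, Rpa3 and Timeless. An unadjusted p under 0.05 was reached by 32 of the 40 genes, 9 of which did not pass after adjustment. In the authors' deposited table, 29 of the 40 had an adjusted p under 0.05 and a lower value, against 6.83% of the rows with an adjusted p there. The additional 6 in that table were Gins3, Pole, Pold1, Rpa2, Rpa3 and Timeless.

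**Figure D1:**
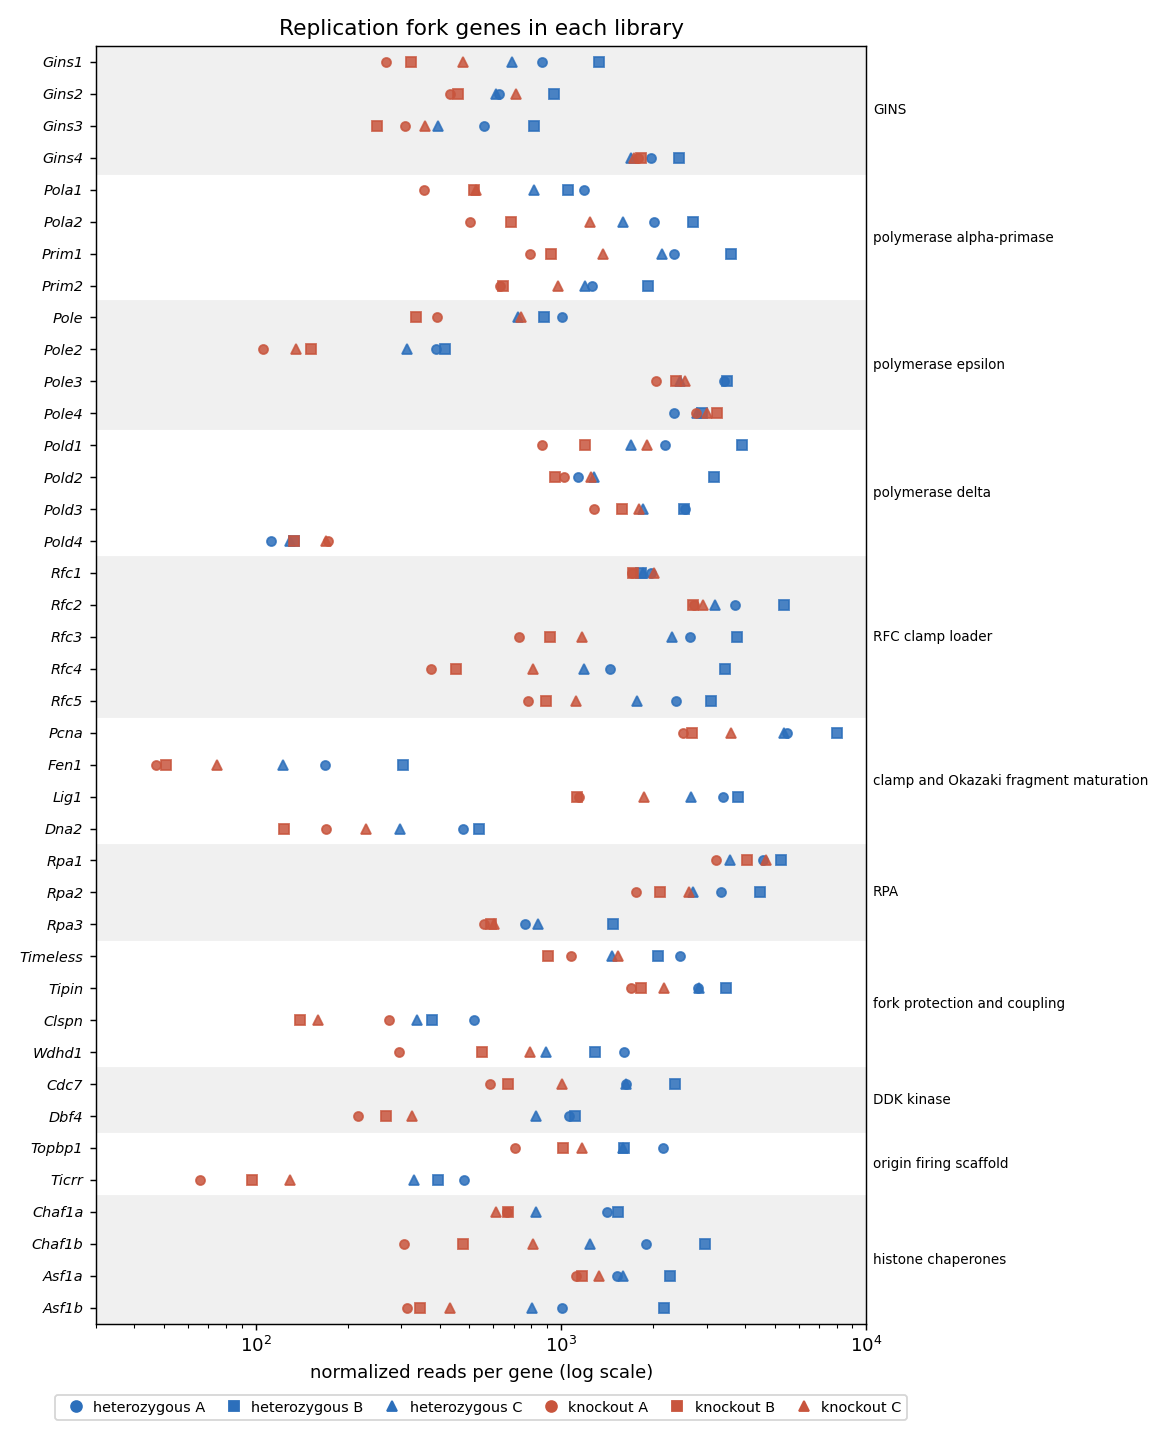
Normalized reads (log scale) of the 40 replication fork genes in each of the 6 libraries, with genes ordered by role and shading separating roles. Knockout points lie left of all heterozygous points for 29 genes, among them all 4 subunits of polymerase alpha-primase, and overlap them for Rfc1, Rpa1, Gins4 and Pole4.

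The calls depended on which pools were in the fit. With each library left out in turn, the count of fork genes called lower was 8 without heterozygous A, 5 without heterozygous B, 21 without heterozygous C, 17 without knockout A, 5 without knockout B and 26 without knockout C, while no fork gene changed sign. Calls over all rows moved too. In the same order, 581, 469, 1379, 1258, 588 and 2063 rows were called lower, against 1565 with all 6 libraries. Rfc3, Rfc5, Dbf4 and Ticrr were called in all 6 of those fits.

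The libraries of a group did not stand at equal distance. The median over the fork genes of the log2 difference from the heterozygous mean was -1.24 in knockout A, -1.15 in knockout B and -0.68 in knockout C, while the heterozygous libraries stood at -0.03, 0.35 and -0.30. Knockout A held the lowest knockout value for 29 genes, and knockout C the highest for 34. Among heterozygous libraries, B was highest for 31 genes and C lowest for 32.

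Recovered depth ran from 19798675 to 25982361 reads per library, and the fork genes had 43 to 8142 reads in a library, with 37 of them at 100 or more in all 6. E2f1, a targeted gene, read 1152, 1388 and 1030 normalized reads in heterozygous libraries and 375.1, 482.6 and 516.1 in knockout libraries, a log2 change of -1.38 ± 0.22 (SE, adjusted p = 0.00559). E2f3, the floxed gene, read 250 ± 44.0 against 266 ± 50.1 normalized reads (SD, n = 3), with a log2 change of 0.09 ± 0.28 (adjusted p = 0.845). These counts cover whole gene models and do not resolve the deleted segments, so the E2f3 count does not check recombination. Markers of the sorted lineage were present in all 6 libraries: Nes at 378.4 to 1024 (the gene whose regulatory sequence drives the Cre), Gfap at 5006 to 13966 and Dcx at 526.2 to 7518 normalized reads.

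Promoter sequence is shown for 7 genes because E2F binding sites are what the targeted factors are known to read. RefSeq windows of 250 bases before to 50 after the start (GRCm38.p6) were matched for 33 of the 40 genes and searched on both strands. An 8-letter E2F form (TTTCCCGC, TTTCGCGC, TTTGGCGC or TTTGCCGC) occurred in 10 of the 33 (30.3%), against 4.33% of 12507 tested genes with a window and 2.26% of all 32851 windows. The core of 7 letters, in which the first T is dropped and which the longer form contains, occurred in 21 of 33 (63.6%), against 18.3% of tested genes and 9.57% of windows. Among the fork genes called lower, 6 of 20 held the longer form and 13 of 20 the core; among those not called, 4 of 13 and 8 of 13 did. The following stretches are on the gene's strand, 5′ to 3′, and capitals mark the E2F letters on either strand; Pola1, Rfc3, Topbp1 and Chaf1a were called lower, and Pole4 and Gins3 were not.
Pola1, chrX:93632256-93632335 (-): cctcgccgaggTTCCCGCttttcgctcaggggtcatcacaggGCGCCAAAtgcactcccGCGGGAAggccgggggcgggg
Rfc3, chr5:151651209-151651238 (-): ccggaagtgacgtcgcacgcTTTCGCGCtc
Topbp1, chr9:103305167-103305214 (+): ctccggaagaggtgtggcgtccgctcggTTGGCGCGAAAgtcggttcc
Chaf1a, chr17:56040326-56040385 (+): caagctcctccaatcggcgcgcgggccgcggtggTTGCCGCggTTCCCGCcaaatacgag
Pole4, chr6:82652900-82652929 (-): gaggcgtggtctctacccggcGCGGGAAAg
Gins3, chr8:95633507-95633536 (+): gcgagtgcggcGCGGGAAAgcgagtttgaa
In Pola1 a longer form is flanked by a core match on each side. In Topbp1 a core and a longer form on the opposite strand share bases, and in Chaf1a a pair of cores lies close together. The Rfc3, Pole4 and Gins3 stretches lie before the RefSeq start used here. In another annotation, GENCODE M21, all 30 bases of each lie in exons of the same gene, so they may be transcribed sequence. For Pola1, Topbp1 and Chaf1a, 0 bases do. Ticrr is shown as the gene with the largest fall. Its window held none of the E2F letters searched and 4 copies of CCAAT, the letters read by the NF-Y factor, as did Asf1b, against 1.85% of tested genes with 4 or more; the stretch below holds 3 of the Ticrr copies in capitals.
Ticrr, chr7:79660016-79660175 (+): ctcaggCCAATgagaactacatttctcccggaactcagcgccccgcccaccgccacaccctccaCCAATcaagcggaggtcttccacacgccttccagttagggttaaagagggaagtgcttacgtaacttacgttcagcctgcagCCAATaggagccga
CCAAT itself occurred in 16 of the 33 windows (48.5%), against 42.4% of tested genes. TTTGAA, part of the CHR element known from mitotic gene promoters, occurred in 6 of 33 (18.2%), against 14.7%. A letter match is not a measured site, and no binding was measured in these libraries.

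All 4 DDK and firing factor genes were lower, and Ticrr had the largest fall of the 40. Values are given in the order of libraries A, B and C. Ticrr (treslin, which brings CDC45 to loaded helicase; chromosome 7, 79660196 to 79698148, GRCm38) read 480.2, 395.9 and 330.8 normalized reads in heterozygous and 65.81, 97.06 and 129.5 in knockout libraries. The groups did not overlap, and the log2 change was -2.07 ± 0.34 (SE), or 4.20-fold lower (adjusted p = 0.00569). Dbf4, the regulatory subunit that activates DDK (chromosome 5, 8396973 to 8422716), read 1058, 1111 and 830.6 normalized reads in heterozygous and 216.1, 267.1 and 324.8 in knockout libraries. Its groups did not overlap, and the change was -1.90 ± 0.24, or 3.72-fold (adjusted p = 0.00218), the smallest adjusted p among the fork genes. Cdc7, the catalytic subunit of DDK, read 1632, 2367 and 1633 normalized reads in heterozygous and 584.6, 669.6 and 1008 in knockout libraries. It was lower in all 3 knockout libraries as well, by 2.52-fold (adjusted p = 0.012). Topbp1, a scaffold of firing and checkpoint signalling, read 2151, 1609 and 1599 normalized reads in heterozygous and 708.6, 1012 and 1171 in knockout libraries. Its groups did not overlap, and it fell 1.87-fold (log2 -0.91 ± 0.24, adjusted p = 0.0332), the smallest fall among these 4 genes.

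GINS is a complex of 4 subunits, and 1 of its 4 genes was called lower. Gins1 read 867.6, 1332 and 688.7 normalized reads in heterozygous and 267.6, 322.3 and 475.6 in knockout libraries. The groups were separate, at 2.68-fold lower (log2 -1.42 ± 0.31, adjusted p = 0.0183). Gins3 read 559.9, 814.3 and 394.8 normalized reads in heterozygous and 307.1, 249.3 and 357.2 in knockout libraries. All its knockout values lay below the heterozygous ones, yet with a log2 change of -0.90 ± 0.30 it did not pass (adjusted p = 0.0709). Gins2 and Gins4 overlapped between genotypes, with log2 changes of -0.45 ± 0.28 (adjusted p = 0.273) and -0.17 ± 0.19 (adjusted p = 0.55). Gins4 read 1969, 2426 and 1697 normalized reads in heterozygous and 1785, 1832 and 1728 in knockout libraries, so its knockout values sat inside the heterozygous range.

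All 4 genes of polymerase alpha-primase, which starts every Okazaki fragment, were lower. Prim1, the catalytic primase, read 2348, 3601 and 2134 normalized reads in heterozygous and 788.7, 924.3 and 1369 in knockout libraries. Its groups were separate, and it fell 2.62-fold (log2 -1.39 ± 0.27, adjusted p = 0.0123). Pola1, the catalytic polymerase subunit whose promoter is printed above, read 1187, 1052 and 816.6 normalized reads in heterozygous and 355.4, 518.2 and 528.2 in knockout libraries. The highest knockout value stayed below the lowest heterozygous value, a 2.19-fold fall (adjusted p = 0.0185). Pola2, the accessory subunit, read 2018, 2700 and 1591 normalized reads in heterozygous and 504.6, 684.7 and 1243 in knockout libraries. Pola2 and Prim2, the large primase subunit, fell 2.72-fold (adjusted p = 0.0219) and 1.94-fold (adjusted p = 0.0377). Knockout C stood apart from the other knockout libraries at Pola2.

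Polymerase epsilon, the leading strand polymerase, had 1 gene of 4 called. Pole2, the second subunit, read 389.4, 417.4 and 311.9 normalized reads in heterozygous and 105.3, 151.4 and 135.6 in knockout libraries. The groups were far apart relative to their spread, and the fall was 2.85-fold (log2 -1.51 ± 0.28, adjusted p = 0.011). Pole, the catalytic subunit, read 1004, 880.9 and 723.7 normalized reads in heterozygous and 391.6, 335.7 and 739.7 in knockout libraries. Knockout C exceeded heterozygous C there, and the log2 change of -0.90 ± 0.31 did not pass (adjusted p = 0.0742). Without knockout C the change was -1.25 and was called. Pole3 and Pole4, histone-fold subunits that also serve in chromatin complexes, had log2 changes of -0.42 ± 0.20 (adjusted p = 0.178) and 0.17 ± 0.17 (adjusted p = 0.518). Pole4 read 2334, 2897 and 2778 normalized reads in heterozygous and 2764, 3237 and 3005 in knockout libraries, with the groups overlapping.

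Of the 4 polymerase delta genes, 0 passed in limma, edgeR or limma-voom, 2 had an unadjusted p under 0.05, and DESeq2 called 1, Pold1. The catalytic Pold1 read 2183, 3909 and 1695 normalized reads in heterozygous and 864.4, 1202 and 1910 in knockout libraries. Heterozygous B was the highest and knockout C lay above heterozygous C, and the log2 change of -0.95 ± 0.36 carried an adjusted p of 0.0942. Without knockout C it was -1.26 and was called. The accessory subunits Pold2 and Pold3 had changes of -0.63 ± 0.35 (adjusted p = 0.238) and -0.57 ± 0.21 (adjusted p = 0.0916), with every knockout value of Pold3 below the heterozygous ones. Pold2 was highest in heterozygous B, at 3173 normalized reads against 957.2 to 1278 in the other 5 libraries. Pold4, the smallest subunit, read 112, 133.3 and 129.9 normalized reads in heterozygous and 172.2, 133.6 and 170 in knockout libraries. It was the fork gene with every knockout value above every heterozygous one, the nearest being 133.3 in heterozygous B and 133.6 in knockout B, and its change of 0.33 ± 0.31 did not pass (adjusted p = 0.471).

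Of the 5 genes of the RFC clamp loader, 3 were lower. Rfc3 read 2645, 3781 and 2306 normalized reads in heterozygous and 728.3, 919.8 and 1173 in knockout libraries. Its groups did not overlap and it fell 3.08-fold (log2 -1.62 ± 0.25, adjusted p = 0.0046). Rfc4 read 1448, 3448 and 1191 normalized reads in heterozygous and 375.1, 454.1 and 807.5 in knockout libraries. Heterozygous B stood far above the other heterozygous libraries, and the fall of 3.50-fold had the larger error (log2 -1.81 ± 0.41, adjusted p = 0.0213). Rfc5 read 2385, 3089 and 1774 normalized reads in heterozygous and 776.6, 894 and 1115 in knockout libraries. It was lower in every knockout library and fell 2.56-fold (log2 -1.36 ± 0.24, adjusted p = 0.0092). Rfc1, the large subunit that is specific to the PCNA loader, read 1969, 1821 and 1850 normalized reads in heterozygous and 1707, 1718 and 2010 in knockout libraries. Its values overlapped, with a log2 change of -0.06 ± 0.17 (adjusted p = 0.84), the smallest in size among the fork genes. Rfc2 read 3723, 5371 and 3186 normalized reads in heterozygous and 2724, 2710 and 2917 in knockout libraries. It had every knockout value below the heterozygous ones but did not pass (log2 -0.52 ± 0.21, adjusted p = 0.123).

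Clamp and Okazaki fragment genes were all called lower. Pcna, the sliding clamp (chromosome 2, 132249162 to 132253314), read 5477, 7978 and 5361 normalized reads in heterozygous and 2511, 2691 and 3595 in knockout libraries. All knockout values lay below, and the group means were 6272 ± 1478 and 2932 ± 581 (SD), a 2.13-fold fall (adjusted p = 0.0148). Lig1, the ligase that seals Okazaki fragments, read 3380, 3809 and 2657 normalized reads in heterozygous and 1146, 1125 and 1863 in knockout libraries. Its groups were separate as well. Lig1 fell 2.42-fold (adjusted p = 0.0116), Dna2, a nuclease-helicase, 2.50-fold (adjusted p = 0.0306), and Fen1, the flap endonuclease, 3.23-fold (adjusted p = 0.0293). Fen1 read 168.5, 302.8 and 122.9 normalized reads in heterozygous and 47.17, 50.75 and 74.88 in knockout libraries. Those were low values for this set, and the error of its log2 change was 0.43. Most of the exon bases of Fen1 (78.8%) are shared with an antisense gene, so its level is uncertain.

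RPA protects exposed strands at forks and in repair, and 0 of its 3 genes passed in limma, although 2 of 3 had an unadjusted p under 0.05 and DESeq2 called those 2. Rpa1, the large subunit, read 4574, 5245 and 3562 normalized reads in heterozygous and 3224, 4061 and 4679 in knockout libraries. Knockout C lay above heterozygous A and C, and the log2 change was -0.16 ± 0.21 (adjusted p = 0.633). Rpa2, the middle subunit, read 3332, 4489 and 2712 normalized reads in heterozygous and 1755, 2116 and 2619 in knockout libraries. Rpa2 and Rpa3, the smallest subunit, had every knockout value below the heterozygous ones, with changes of -0.69 ± 0.24 (adjusted p = 0.075) and -0.75 ± 0.27 (adjusted p = 0.0827).

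Of the fork protection and coupling genes, 3 of 4 were lower. Clspn (claspin, a checkpoint mediator at the fork) read 520.6, 377.2 and 337.8 normalized reads in heterozygous and 274.2, 139.8 and 159.9 in knockout libraries. The fall was 2.21-fold (adjusted p = 0.0447) and was not called by edgeR. Wdhd1 (AND-1, which ties polymerase alpha to the helicase) read 1608, 1293 and 891.6 normalized reads in heterozygous and 295.1, 552.9 and 791.3 in knockout libraries. Its groups were separate, at 2.43-fold lower (log2 -1.28 ± 0.36, adjusted p = 0.0427). Tipin read 2806, 3468 and 2829 normalized reads in heterozygous and 1694, 1825 and 2175 in knockout libraries. It fell 1.60-fold (adjusted p = 0.0379) with separate groups. Timeless, its partner in the fork protection complex, read 2444, 2074 and 1468 normalized reads in heterozygous and 1077, 907.3 and 1539 in knockout libraries. Knockout C lay above heterozygous C there, and the gene overlapped between genotypes (log2 -0.77 ± 0.26, adjusted p = 0.0733).

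Among the histone chaperones, 3 of 4 were lower. Chaf1b, the middle subunit of CAF-1, read 1899, 2963 and 1241 normalized reads in heterozygous and 306, 478.2 and 811.5 in knockout libraries. The fall was 3.88-fold (log2 -1.96 ± 0.39, adjusted p = 0.0141), and knockout A was the lowest. Chaf1a, the large CAF-1 subunit, read 1416, 1538 and 824.6 normalized reads in heterozygous and 665.8, 670.5 and 612.2 in knockout libraries. It fell 1.87-fold (adjusted p = 0.0429). Asf1b, the ASF1 paralog known for expression in cycling cells, read 1008, 2174 and 803.6 normalized reads in heterozygous and 313.7, 344.6 and 434.1 in knockout libraries. It fell 3.34-fold (adjusted p = 0.0142). Asf1a, the other paralog, read 1526, 2279 and 1592 normalized reads in heterozygous and 1116, 1169 and 1330 in knockout libraries. Knockout values all lay below heterozygous ones there, but the change of -0.56 ± 0.21 did not pass (adjusted p = 0.0972).

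**Figure D2:**
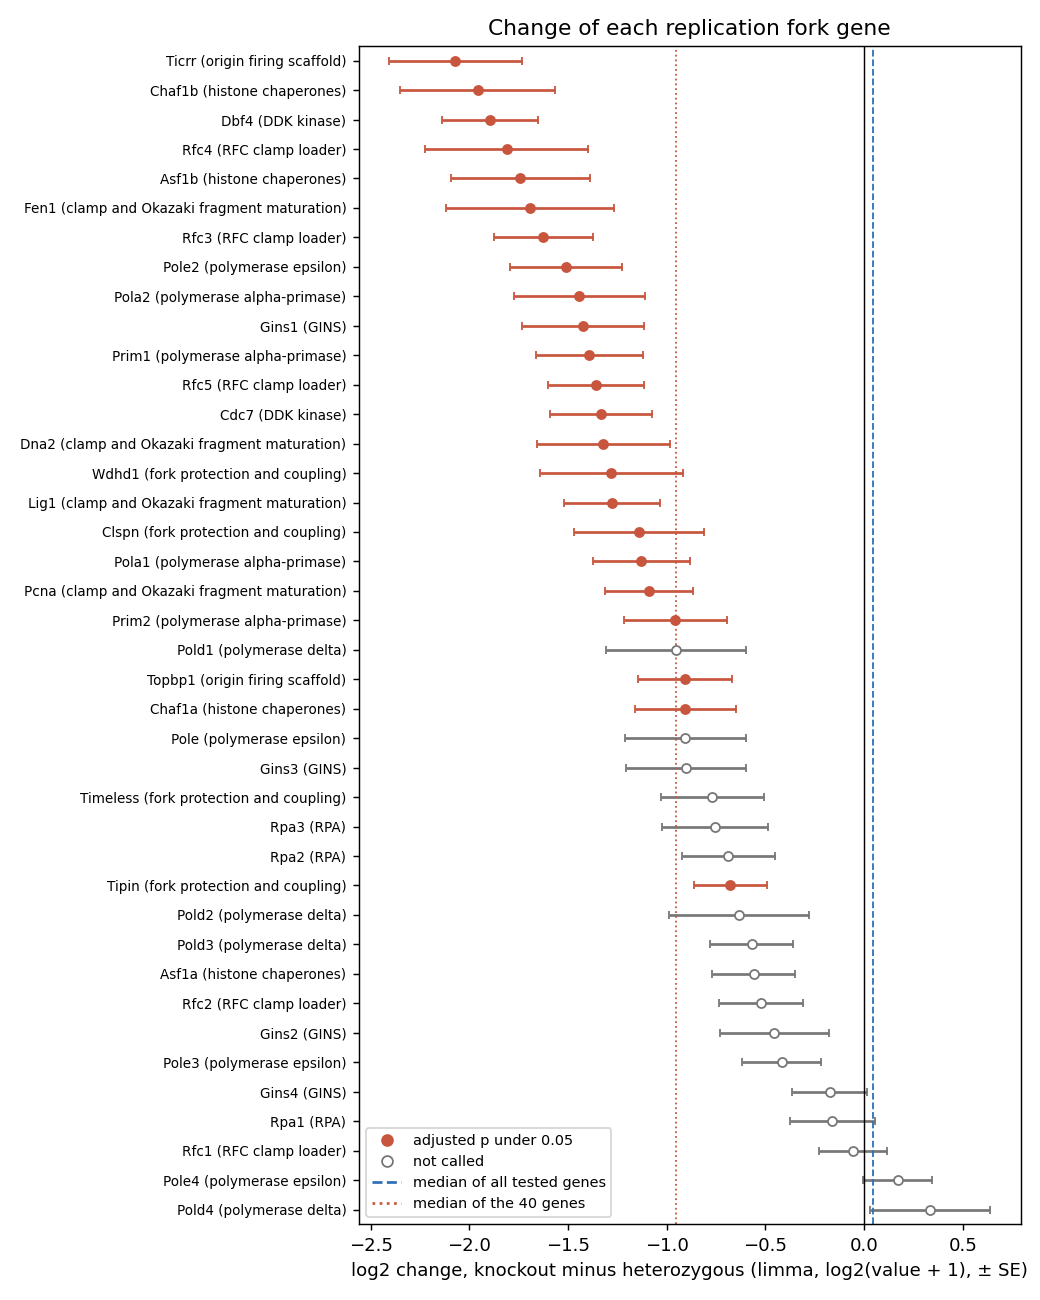
Log2 change (knockout minus heterozygous) of the 40 replication fork genes from the fit across all rows, sorted, with error bars of 1 SE and called genes marked by colour. Ticrr, Chaf1b and Dbf4 lie at the low end near -2, Rfc1 is nearest 0, and Pole4 and Pold4 are the genes right of 0.

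Ratios between partners were compared within libraries for 15 pairs, which cancels any scale that both genes of a pair share in a library. The pairs were chosen with earlier results of these data known, so the count below and its direction describe these pairs only. No share over other gene pairs was computed. In 10 pairs the ratio was lower in every knockout library than in every heterozygous library. Each of these 10 pairs had an exact two-sided permutation p of 0.1, the smallest that 3 against 3 libraries allow, and 0.15 after adjustment over the 15 pairs, so none could pass. The widest shifts were Pole2 over Pole4 (-1.68), Rfc3 over Rfc1 (-1.57), Rfc5 over Rfc1 (-1.30), Pold1 over Pold4 (-1.29), Asf1b over Asf1a (-1.18), Pole2 over Pole3 (-1.09) and Chaf1b over Chaf1a (-1.05), all on the log2 ratio scale. Dbf4 over Cdc7 (-0.57), Rpa2 over Rpa1 (-0.53) and Prim1 over Prim2 (-0.44) shifted less. The Asf1b over Asf1a log2 ratio was -0.60, -0.07 and -0.99 in heterozygous A, B and C and -1.83, -1.76 and -1.61 in knockout A, B and C. Chaf1b exceeded Chaf1a in all heterozygous libraries and in knockout C, and was below it in knockout A and B, where the log2 ratios were -1.12 and -0.49. The 5 pairs that overlapped were Pola2 over Pola1, Pole2 over Pole, Pold1 over Pold3, Rpa2 over Rpa3 and Timeless over Tipin, with exact permutation p from 0.3 to 0.8.

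**Figure D3:**
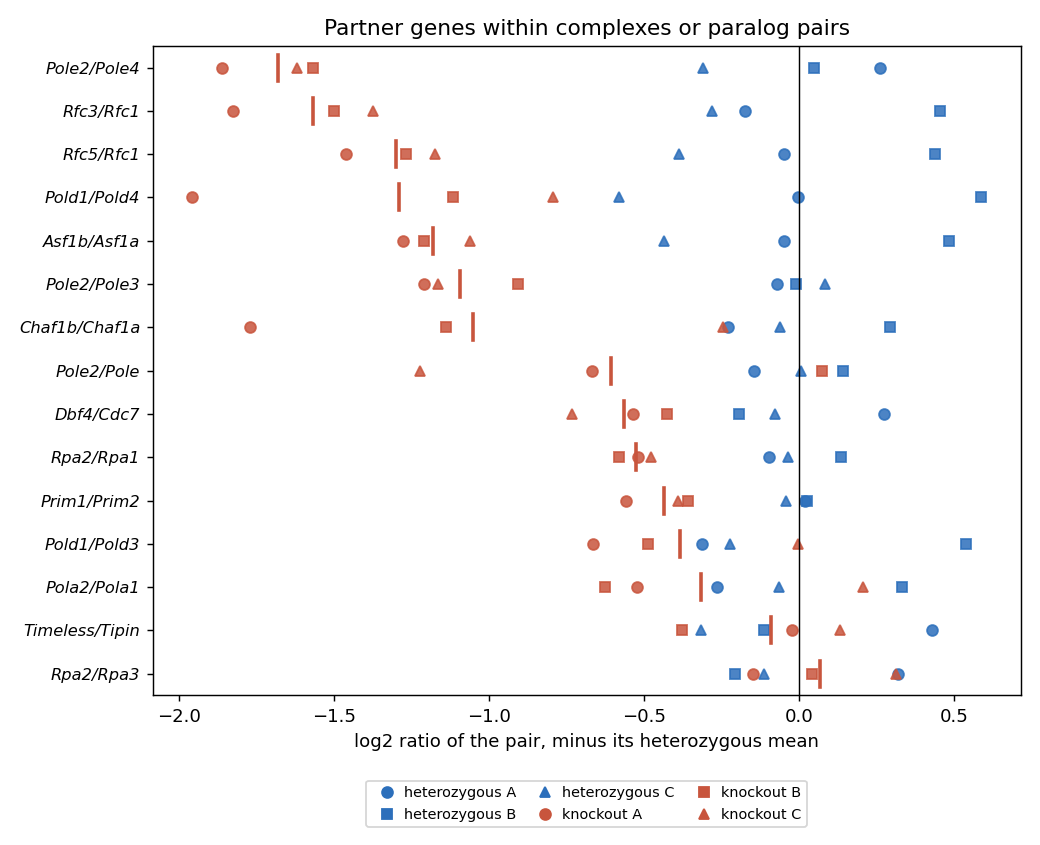
Log2 ratio of each of 15 partner pairs in each library, minus the pair's mean over heterozygous libraries; the vertical tick is the knockout mean. Knockout points lie left of every heterozygous point in 10 pairs, with the widest gap for Pole2 over Pole4 and Rfc3 over Rfc1.

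Levels were compared between genes only per kilobase of merged exons (GENCODE M21). Pcna was highest in each heterozygous library, at a mean of 2613 normalized reads per kb, and Ticrr was lowest in all 6 libraries, at means of 40.2 in heterozygous and 9.74 in knockout libraries. The knockout means per kb of Gins4 (1321), Pcna (1222) and Pole4 (1197) lay close together, and their order differed between libraries. Gins4 was highest in knockout A and B, and Pcna in knockout C, where Pcna read 1498 and Gins4 1281 per kb. Pole4 lay above Pcna in knockout A (1102 against 1046 per kb) and B (1290 against 1121) and below it in knockout C. Within RFC the heterozygous means per kb of Rfc1 to Rfc5 were 312, 649, 806, 1324 and 518, and the knockout means were 301, 442, 260, 356 and 199. The ratio of the highest to the lowest RFC gene per kb was 2.89, 7.44 and 2.53 in heterozygous and 2.60, 2.25 and 2.21 in knockout libraries, so the genotypes overlapped in this spread. Heterozygous B decided the Rfc4 mean, which was 861 per kb without it. Rfc4 was the highest of the 5 in knockout C and Rfc2 in knockout A and B.

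**Figure D4:**
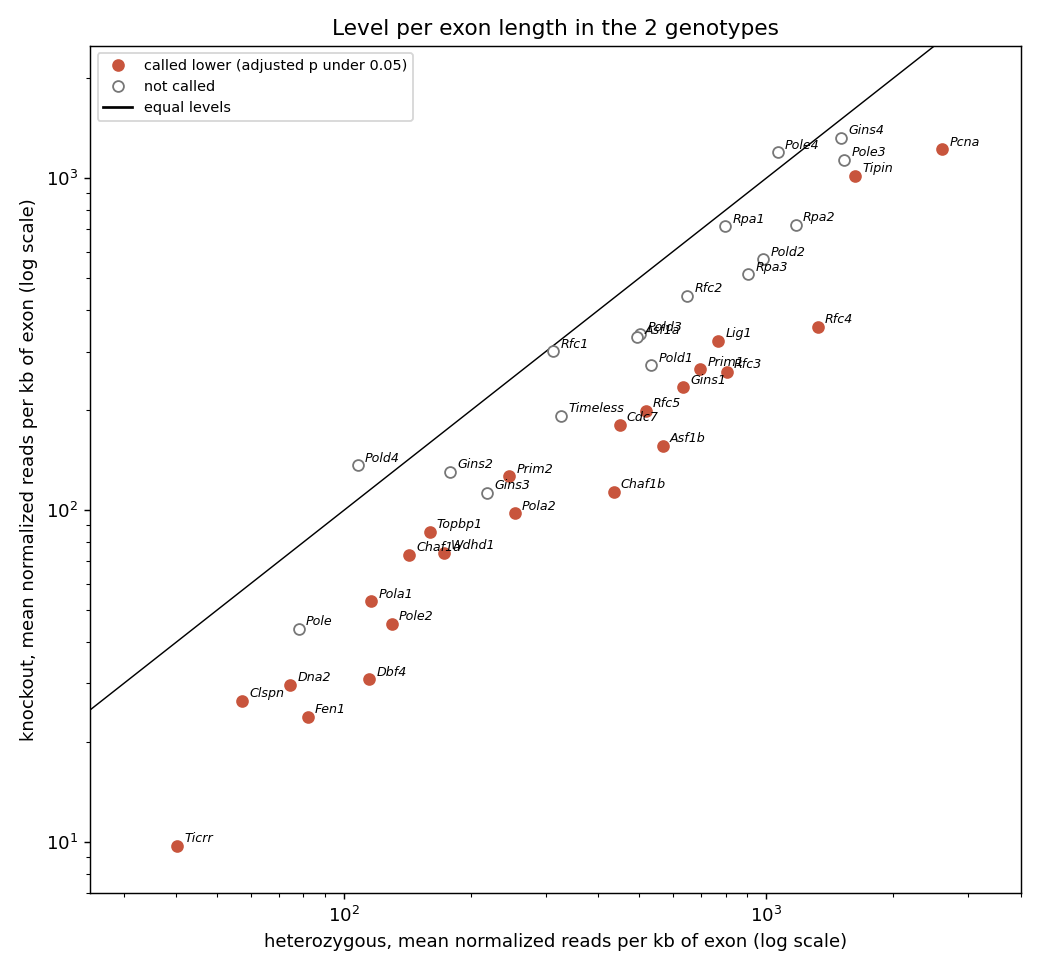
Mean normalized reads per kb of exon for each replication fork gene, on log axes, in heterozygous libraries (horizontal) against knockout libraries (vertical); the line marks equality. Most genes lie below the line, Pole4 and Pold4 above it, and Ticrr is the lowest in both genotypes.

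Of 56 other DNA replication genes in 4 lists, 55 were tested (Chtf8 was not), 23 were lower (41.8%) and 1 was higher. Their median log2 change was -0.76. Across all rows tested, 8.59% were called lower and 7.23% higher. In licensing and helicase, 11 of 21 were lower, including Cdc45, the GINS partner in the active helicase (3.14-fold, adjusted p = 0.0105), Mcm10, which activates it (2.83-fold, adjusted p = 0.0162), and Orc6, of the origin recognition complex (2.07-fold, adjusted p = 0.0194). Among other clamp loader and lagging strand genes, 5 of 13 were lower: Pclaf, a PCNA-binding protein (5.12-fold, adjusted p = 0.000969), the exonuclease Exo1 (3.09-fold, adjusted p = 0.0144), Rnaseh2b, a subunit of the enzyme that removes ribonucleotides (2.22-fold, adjusted p = 0.0148), Dscc1 of the alternative loader (2.82-fold, adjusted p = 0.0295), and Atad5, which unloads PCNA (2.00-fold, adjusted p = 0.0365). Polk, a translesion polymerase, was the list gene called higher. It went from 559 ± 56.0 to 1029 ± 231 normalized reads (SD, log2 0.86 ± 0.23 SE, adjusted p = 0.0366). Primpol, of the same list, also had every knockout value above the heterozygous ones but did not pass (log2 0.73 ± 0.29, adjusted p = 0.116). Dscc1, Atad5, Polk and Primpol were named after their values were seen. Of further chaperones and topoisomerases, 6 of 12 were lower, led by Top2a, the topoisomerase of G2 and mitosis (7.06-fold, adjusted p = 0.00156), the histone chaperone Nasp (1.99-fold, adjusted p = 0.0108) and Top2b (2.04-fold, adjusted p = 0.0181). Of 9 fork checkpoint genes, 1 was lower, Rad18, the ligase that marks PCNA (2.15-fold, adjusted p = 0.0450). That count is near the 8.59% of all rows. The median log2 change of the checkpoint list was -0.46, with 7 of 9 negative. Over the 4 lists together, the count lower was 4 with heterozygous A left out and 2 with heterozygous B left out. It was 4 with knockout B left out and 32 with knockout C left out. Over all rows, 581, 469, 588 and 2063 were called lower in those fits, against 1565 in the full fit.

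Levels of cell type markers moved with genotype in the same libraries, and in bulk RNA fewer cells of a type cannot be told apart from less RNA per cell. Summed over the set, the fork genes stood at 60599 to 95241 normalized reads in heterozygous and 36761 to 51113 in knockout libraries. Beside the counts of called markers below, limma called 8.59% of all rows tested lower and 7.23% higher. All 12 neuroblast markers (Dcx, Stmn2 and Sox11 first in the list) were lower, with summed levels of 60394 to 91135 against 11102 to 13151, and 4 of 7 transit-amplifying markers were lower (Ccnd2, Dlx1, Dlx2 and Sox4). All 20 mitosis genes (Mki67, Bub1 and Bub1b first in the list) were lower, with a median log2 change of -2.71 against -0.95 for the fork genes. No test of that difference was made. Stem cell and astrocyte markers were higher for 3 of 12 (Gfap, Id3 and Sox9) in limma and edgeR and for 5 in DESeq2, with 0 lower in any of these and a median log2 change of 0.65. Ependymal markers were higher for 6 of 10 in limma, 8 in edgeR, 9 in DESeq2 and 4 in limma-voom, and their summed level was 11650 to 12777 in heterozygous libraries and 67030, 39721 and 16440 in knockout A, B and C. Knockout A and B, which held the lowest values of most fork genes, were also highest for ependymal and endothelial markers, and knockout A for blood: Hba-a1, a haemoglobin gene, read 10876 normalized reads there against 352.1 to 2838 in the other 5 libraries. Of 8 endothelial and mural markers, limma and limma-voom called 1 higher (Pdgfrb), edgeR 2 (Acta2 and Pdgfrb) and DESeq2 6, with all 8 at an unadjusted p under 0.05 upward in edgeR and DESeq2 and 4 in limma; they summed to 5733 to 7965 against 8221 to 28285; microglia and blood markers were called for 0 of 8 in limma, edgeR and DESeq2, with 0 at an unadjusted p under 0.05, and summed to 1888 to 7160 against 1313 to 24535. Oligodendrocyte markers were called for 0 of 7 in limma and edgeR, with 3 at an unadjusted p under 0.05 upward, and DESeq2 called 1 higher, Mog. Their median log2 change was 0.52, with 0 of 7 negative. They summed to 45222 to 66343 in heterozygous and 71264 to 88147 in knockout libraries. Of 5 mature neuron markers tested 4 were lower (Rbfox3, Snap25, Syt1 and Drd2) and 1 higher (Ppp1r1b), while Slc17a7 was listed at 0 in 5 of 6 libraries. These called markers were named after their values were seen. The part of cell composition in the fork gene changes was not tested. Without knockout A, 17 fork genes and 1258 of all rows were called lower, and without knockout B 5 fork genes and 588 rows were.

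**Figure D5:**
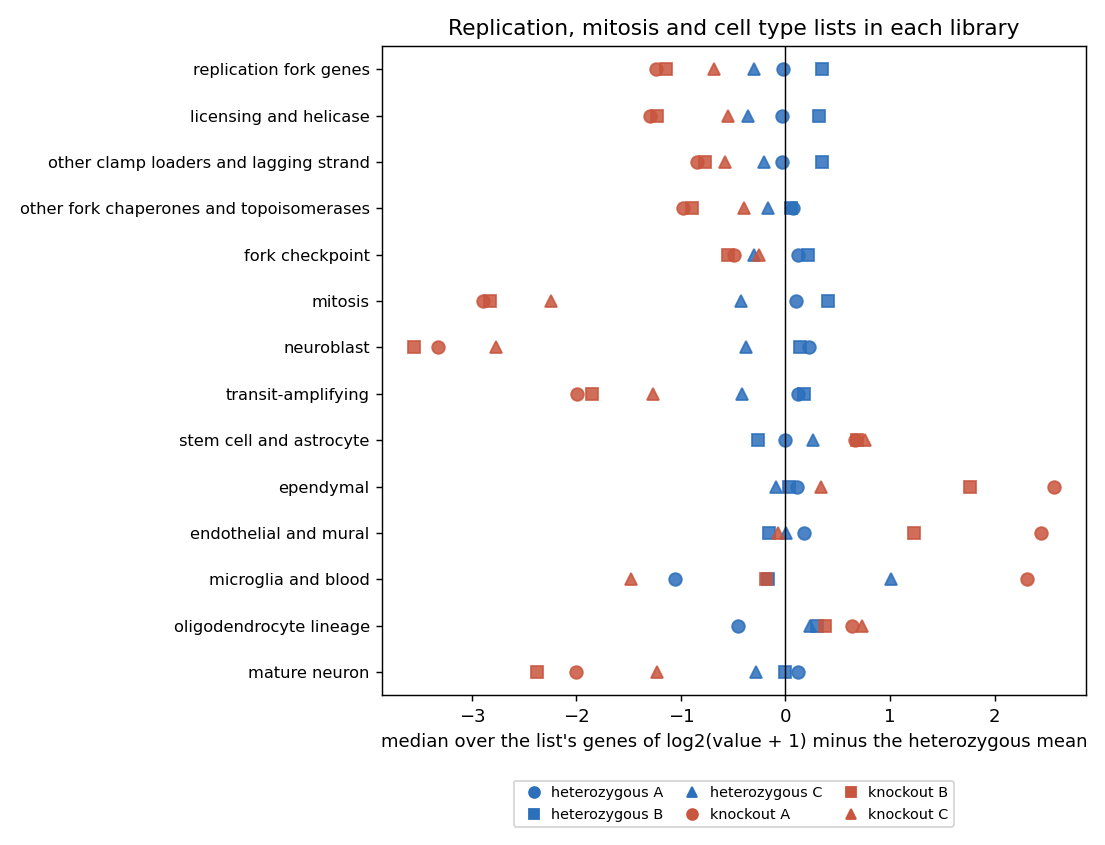
Median over each list's genes of log2(normalized reads + 1) minus the gene's heterozygous mean, for each library. The fork genes stand at -1.24, -1.15 and -0.68 in knockout A, B and C; mitosis and neuroblast lists lie further left, and the ependymal list lies right, most in knockout A.

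Gene models overlap for some of these genes, and reads in shared exons cannot be assigned with certainty. The strand setting of the counting is not given in the sources used here. Counts and levels per kb of the genes named below carry this limit. At least 5% of exon bases were shared with another gene for 10 of the 40. The largest shares were Fen1 with the antisense Gm10143 (78.8% of its exon bases; 4.45 to 21.6 normalized reads for Gm10143), Gins2 with Gse1 (67.3%), Chaf1a with Ubxn6 (52.5%) and Asf1a with Mcm9 (48.1%). Pold4, the fork gene with every knockout value above, shared 24.6% with AC109138.7 on the same strand, which no strand setting could separate. Rfc2 shared 15.1% with Lat2. Rfc4 shared 12.7% with Eif4a2, a gene at 4230 to 5384 normalized reads. Rfc5 shared 10.7% with Wsb2, which read 1679 to 3429 normalized reads and was itself lower in all 3 knockout libraries than in the heterozygous ones. Pole2 shared 8.5% with Gm49384, which read 0 in every library, and Lig1 shared 5.79% with Zswim9. Pcna has pseudogene copies, of which Pcna-ps2 read 30.7 to 284.2 normalized reads, lower in all 3 knockout libraries than in the heterozygous ones; reads could have been split between them and Pcna.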

How the data were processed

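RNA-seq was measured in 6 libraries of sorted cells, 3 per genotype. HISAT2, featureCounts from Subread, DESeq2 and GRCm38 are named in the submitters' processing notes, without versions; the annotation release and strand setting are not given in the sources used here. Libraries were made with SMART-Seq v4 and Nextera XT, per the labels' protocols. Per library, the table holds a normalized signal, which the authors made from read counts of each gene and 1 size factor. The authors' deposited log2 fold changes, their test statistic and weight (scores), and their p-value and adjusted p-value columns stand in the same table.

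Values fell on whole steps of 1 size per library (tolerance 0.001 reads), so whole reads were recovered for the alternatives. The main test was limma 3.58.1 with a mean-variance trend (R 4.3.3) on log2(value + 1), two-sided, for the 18227 rows with a mean of at least 10, genotype as the only term, Benjamini-Hochberg over all rows, called at 0.05. Fold changes are on that scale, which understates the change of low genes. All 40 genes passed the filter. Pair ratios used exact permutation tests. Alternatives were pseudocounts, filters, TMM and upper quartile scaling, edgeR 4.0.16, DESeq2 1.42.0, limma-voom, a replicate block, 2 other thresholds and each library left out. The limma fit was tested on simulated counts with known fold changes. The alternatives were not run on those counts, and the simulation held no shifts shared by many genes of a pool. Libraries of a group differed by far more than sampling noise (chi-square divided by its degrees of freedom, 42.2 to 115), so none was a duplicate. Coordinates come from GENCODE M21 (GRCm38), promoters from RefSeq.

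The genes, lists and pairs were chosen with earlier results of these data known. The rule for naming took all 40 genes, E2f1 and E2f3, up to 3 called genes with the smallest p per replication list, and the first markers of the other lists.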

Additional observations from a re-analysis of the deposited data

How the results depend on the processing

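The fork genes called lower numbered 23 in the reported fit, 23 with TMM or upper quartile scaling, either other pseudocount, limma-voom or a filter at 50, 22 with edgeR, 28 with DESeq2, 21 and 20 with a looser or no filter, and 31 at adjusted p under 0.1; none was called higher in any of these fits. At adjusted p under 0.01, 4 fork genes, 2 replication list genes lower and 0 higher, and 503 rows lower and 115 higher were called. At 0.1, 2409 rows were lower and 2348 higher, against 1565 and 1318, and DESeq2 called 2273 higher; the lower share of calls was 54.3% in the reported fit, 48.1% with DESeq2 and 81.4% at 0.01. With the replicate block, 18 fork genes were called lower and 0 replication list genes higher, while 1205 of all rows were lower. With the looser filter 1483 rows were lower and with no filter 1360, against 1565 in the reported fit. Whether the letters pair the libraries is not stated in the sources used here. Same-letter correlations were -0.072, 0.021 and -0.103, which cannot exclude a shared litter or day. With each library left out, fork genes lower ranged from 5 to 26, list genes lower from 2 to 32 and higher from 0 to 1, all rows lower from 469 to 2063 and higher from 109 to 1956, and the fork median from -1.19 to -0.90; fewer libraries enter each of those fits. Timeless over Tipin (-0.09) became 0.12 without heterozygous A and 0.053 without knockout B, with a range of -0.25 to 0.12, and Rpa2 over Rpa3 (0.07) became -0.036 without heterozygous B and -0.055 without knockout C, with a range of -0.055 to 0.23; the cause was not tested. With 3 pools a group, no pair ratio can pass an exact test.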
